A study of Mus musculus with 3 samples.

Results

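The genes described here encode the Slc2, Slc5, Slc16 and Slc27 membrane carriers, which move glucose and related sugars, monocarboxylates such as lactate, and fatty acids across membranes. Every mouse gene symbol made of one of these family names, the letter a and a number was taken, which gave 42 carrier genes of the 19938 genes with a probeset of their own on the array. Of these, 12 were Slc2, 11 Slc5, 13 Slc16 and 6 Slc27 genes.

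The carriers were measured in 3 samples of endothelial cells of the adult kidney cortex, called replicates 1, 2 and 3, which form 1 group. Each came from 1 kidney, not pooled, of an adult mouse (stage TS28) with the Tg(TIE2GFP)287Sato transgene, on a mixed background that was primarily CD-1 and with the sex given as unknown. After removal of the medulla, the cortex was treated with 1% Collagenase A (5 min) and sieved at 100 µm and then at 40 µm, which took out the glomeruli, and after trypsin (5 min) and a 70 µm mesh the GFP positive cells were sorted. RNA went through 1 round of amplification with the WT-Ovation Pico system and was hybridized to Affymetrix Mouse Gene 1.0 ST arrays. In this transgene the promoter of Tek (Tie2), the angiopoietin receptor of endothelium, drives GFP, so the sort selects on GFP and not on cell type itself.

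Slc2 proteins (GLUTs) let glucose, fructose, urate or inositol run down their gradients, whereas many Slc5 proteins couple uptake to the sodium gradient, among them the SGLT glucose carriers of the kidney tubule. Slc16 proteins include the MCTs, which carry lactate and ketone bodies together with protons, and Slc27 proteins (FATPs) take up fatty acids and activate them with coenzyme A. In the kidney, the proximal tubule is known for reclaiming filtered glucose and lactate and for burning fatty acids, while endothelial cells are known for taking up glucose through Slc2a1 and running glycolysis.

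The deposited values are log2 signals, and the mean of every probeset was set against a signal of 100, above it and separately below it (6.64 on the log2 scale). This is the level the study's methods used to leave out weakly expressed probesets. Those methods asked for this raw level in 3 samples and did not test a mean, so their rule is not the test used here. The test was limma's moderated one-sample test, one-sided, adjusted by Benjamini-Hochberg over the 35557 probesets of the table, and genes with an adjusted p under 0.05 are called above or below here. All 3 samples held the same value to 5 decimals in 40.5% of the probesets, so that their SD is 0 and p is small however near the limit they lie. The 3 columns had median log2 signals from 5.66 to 5.70 and correlated with Pearson's r between 0.941 and 0.950 across probesets, which are not independent replicates. The study calls its samples biologically independent, but the labels do not tie the kidneys to separate mice, so a p-value measures only the spread between these samples. A signal depends on its probes, so levels are compared with the limit and between samples of 1 gene, never between genes.

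The endothelial label was checked against marker genes, and genes of the tubule were measured beside them. All 10 endothelial genes were above 100, among them Pecam1, Cdh5 and Kdr, and their summed signal was 10744.5, 11234.4 and 8924 in replicates 1, 2 and 3. Of 11 proximal tubule genes 8 were above (Lrp2, Cubn, Slc34a1, Slc22a6, Slc22a8, Slc13a3, Slc4a4 and Gatm), all 11 reached 100 in every sample, and their summed signal was 6399.9, 5120.0 and 6274 in the same order. Leaving out replicate 1 or replicate 3 each lowered that count to 4, and the endothelial count to 6. Of the other tubule genes, 3 of 6 for the thick ascending limb and 3 of 4 for the distal convoluted tubule were above. For the collecting duct 1 of 9 (Atp6v0d2) was above, and for smooth muscle and pericytes 1 of 6 (Rgs5). These lists also held genes below, namely 4 of the 9 collecting duct genes (Scnn1b, Scnn1g, Slc4a1 and Slc26a4). Trpm6 of the distal convoluted tubule and Cnn1 of smooth muscle were below too. The genes of the thick ascending limb and the distal convoluted tubule lost their calls above without replicate 1 and without replicate 3, and Atp6v0d2 and Rgs5 lost theirs without replicate 1 and without replicate 2. With the median variance of the other probesets assigned to those with equal values, all 11 proximal tubule genes were above. In this setting 4 of the 6 thick ascending limb genes were above. Smooth muscle and pericytes then had 3 of 6 genes above, Acta2 and Myh11 among them. The counts above for endothelium, distal convoluted tubule and collecting duct stayed as in the main fit. None of the 3 podocyte, 6 leukocyte, 1 erythroid and 3 adipocyte genes was above, and all of these were below. In bulk samples such as these, fewer cells of a type and less RNA per cell cannot be told apart.

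The carriers were set against the limit and beside all genes of the array. A mean above 100 was found for 6 of the 42 carriers, or 14.3%, where 22.9% of all 19938 genes were above, and for 28 carriers, or 66.7%, the mean was below, where 65% of all genes were below. The 6 carriers above were Slc2a1, Slc2a2, Slc5a12, Slc16a11, Slc16a13 and Slc27a2, so that each family had at least 1. The other 8 were neither above nor below. A signal of 100 or more in all 3 samples, with no test, was reached by 10 carriers (28% of all genes reached it). In at least 1 sample it was reached by 14 carriers, a rule for which the share of all genes was not counted. When probesets with equal values were assigned the median variance of the others, 7 carriers were above and 27 below, where 21.1% and 62.2% of all genes were. The median log2 signal of the 42 carriers was 6.05, with 5.88 over all genes. Of the 6 carriers above, 3 were above without replicate 1, and 4 carriers were above without replicate 2. Without replicate 3 the number was 6, of which 3 were other genes (Slc2a10, Slc16a9 and Slc16a14). In all of these 6 the remaining samples are equal, so that their small p rests on equal values. The share of all genes was not counted for fits without 1 sample.

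**Figure D1:**
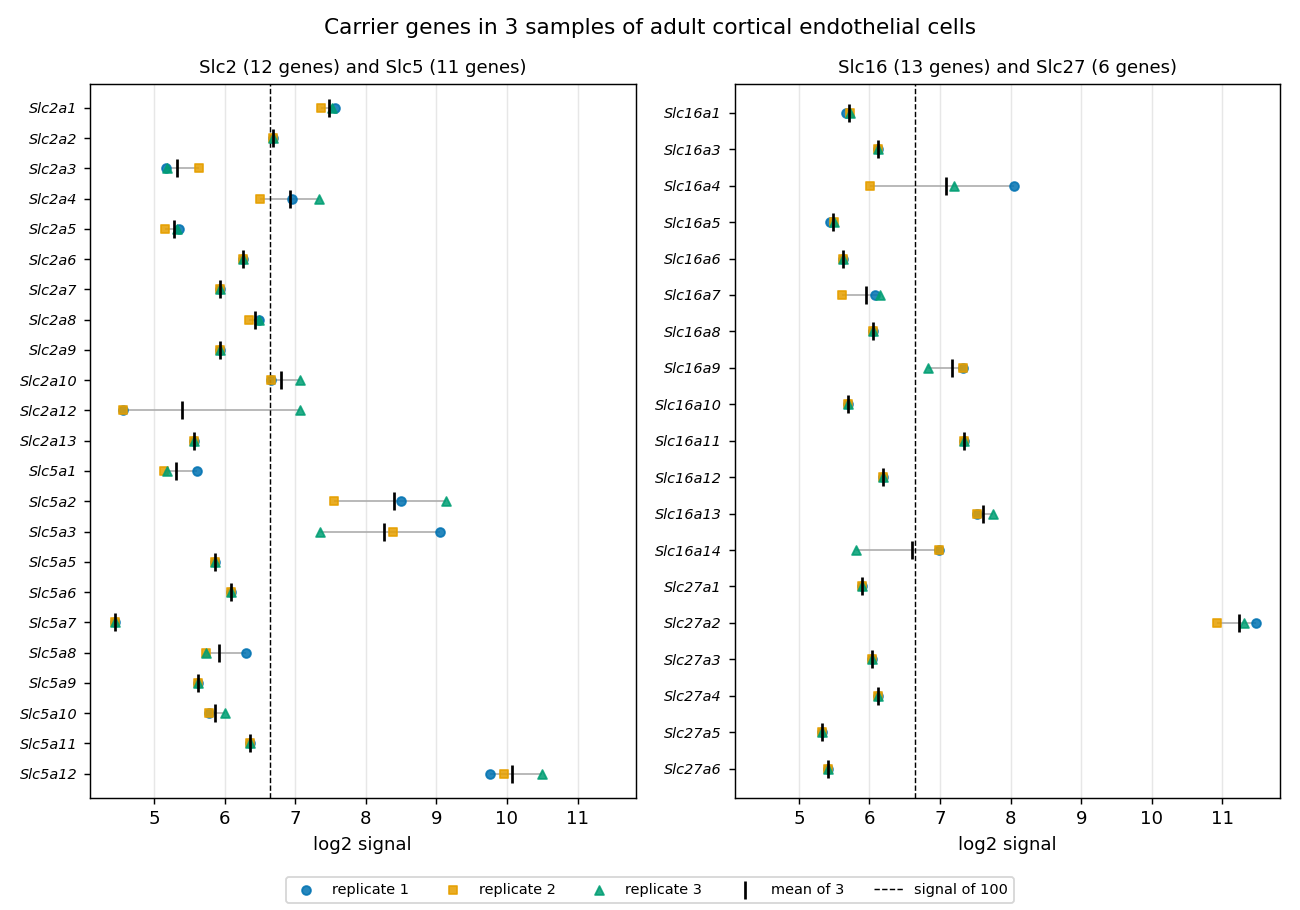
Log2 signal (x axis) of each of the 42 carriers in replicates 1, 2 and 3 of the adult cortical endothelial cells, with Slc2 and Slc5 genes in the left panel and Slc16 and Slc27 genes in the right panel. The short black bar is the mean of the 3 samples, the grey line joins the lowest and the highest sample, and the dashed line is a signal of 100 (6.64). Of the carriers 28 were below the line by the test, and 18 of these have points that coincide, while Slc5a12 and Slc27a2 lie far to its right in every sample.

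The upstream sequences of Slc2a1 and Slc27a2 are shown because both genes were above 100 and both windows held the short motifs of a hypoxia response element and of a GC box. Each is the 250 bases before the RefSeq start of the gene on mouse build GRCm38.p6, plus strand, at chr4:119108495-119108744 for Slc2a1 and chr2:126552774-126553023 for Slc27a2. Capitals mark every match to ACGTG, the core of the hypoxia response element, and to GGGCGG, the GC box that binds Sp factors (CCGCCC when read on the other strand).
Slc2a1: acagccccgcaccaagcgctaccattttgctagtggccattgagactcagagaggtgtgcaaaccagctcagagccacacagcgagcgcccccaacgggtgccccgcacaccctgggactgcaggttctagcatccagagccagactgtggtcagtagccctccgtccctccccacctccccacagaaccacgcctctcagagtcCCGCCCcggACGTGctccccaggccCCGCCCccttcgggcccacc
Slc27a2: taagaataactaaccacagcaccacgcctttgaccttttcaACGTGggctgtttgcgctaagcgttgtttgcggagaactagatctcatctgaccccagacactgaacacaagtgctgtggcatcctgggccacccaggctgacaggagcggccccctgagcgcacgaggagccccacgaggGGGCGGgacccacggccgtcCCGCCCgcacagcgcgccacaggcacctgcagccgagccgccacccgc
In each window 1 hypoxia response core and 2 GC boxes were found. A window was at hand for 31 of the 42 carriers, and on either strand ACGTG occurred in 6 of these 31 (Slc2a1, Slc5a1, Slc16a1, Slc16a3, Slc16a12 and Slc27a2), against 16.6% of all 32851 windows of the same length. GGGCGG occurred in 16 of the 31, against 32.7% of all windows. TATAAA, the TATA box, occurred in 2 of the 31 (Slc5a7 and Slc16a4), against 12.4%, and GTTAAT, a part of the site of the kidney and liver factor HNF1, in 2 (Slc5a10 and Slc16a10), against 6.43%. Of the 6 carriers above 100, Slc2a2 and Slc16a11 had none of these 4 motifs in their windows, and Slc5a12 and Slc16a13 had no window. The other 4 carriers with ACGTG in the window, Slc5a1, Slc16a1, Slc16a3 and Slc16a12, were below 100. A match is a run of letters and not a measured site.

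Among the facilitative glucose carriers, Slc2a1 and Slc2a2 were above 100 and Slc2a3 was below. Slc2a1 (GLUT1), the basal glucose carrier of many cells and of blood-brain barrier endothelium, had a signal of 188, 164 and 184 in replicates 1, 2 and 3, or 7.48 ± 0.11 on the log2 scale (SD, n = 3; limma, adjusted p = 0.00835). All 3 samples lay above the limit and within 1.15-fold of each other. With replicate 1 left out the adjusted p from limma was 0.0964, and with replicate 3 left out it was 0.166, and the call was lost in both.

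Slc2a2 (GLUT2), the carrier through which liver cells, beta cells and proximal tubule cells exchange glucose with the blood, had a signal of 103 in each of the 3 samples (6.68 on the log2 scale; limma, adjusted p = 0.000149). It lay just over the limit, and the small p rests on 3 equal values. When equal values were assigned the median variance of the other probesets, limma's adjusted p was 1.00, and the call was also lost after quantile normalization or a shift of the columns to the same median.

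Slc2a3 (GLUT3), the high-affinity carrier of neurons, had log2 signals of 5.17, 5.63 and 5.19, averaging 5.33 ± 0.26 (SD, n = 3; limma, adjusted p = 0.00642, below). Every sample stayed under a signal of 50. Without replicate 1 the adjusted p from limma was 0.056, and without replicate 3 it was 0.0858. Slc2a4 (GLUT4), which insulin brings to the surface of muscle and fat cells, had a signal of 124, 90.7 and 162 in replicates 1, 2 and 3 (6.93 ± 0.42 on the log2 scale, SD, n = 3; limma, adjusted p = 0.596). Its replicate 2 fell under the limit and the other samples over it, so that it was neither above nor below. The adipocyte genes Adipoq, Plin1 and Lep were below, at signals of 12.9, 64.1 and 21.7 in every sample.

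The 3 carriers known for fructose or urate were below. Slc2a5 (GLUT5), the fructose carrier of the gut, had log2 signals of 5.36, 5.15 and 5.32 (limma, adjusted p = 0.000927). Slc2a9, a urate carrier of the tubule, and Slc2a7, which lies next to Slc2a5 on chromosome 4, each had 5.94 in every sample (limma, adjusted p = 7.4e-09 for each). None of the 3 genes reached 100 in any sample.

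Of the other 5 Slc2 genes, 3 were below, namely Slc2a6 and Slc2a8, which act on membranes inside the cell, and Slc2a13, which carries inositol with protons. Their mean log2 signals ran from 5.57 to 6.44, and Slc2a8 lost its call without replicate 1 (limma, adjusted p = 0.0955) or without replicate 3 (0.13). Slc2a10 (GLUT10), whose loss causes arterial tortuosity, had a signal of 101, 101 and 135 in replicates 1, 2 and 3 (6.79 ± 0.24 on the log2 scale, SD, n = 3; limma, adjusted p = 0.667). Replicates 1 and 2 sat at the limit and replicate 3 over it, and without replicate 3 the pair of equal values gave a call above (limma, adjusted p = 5.06e-14). Slc2a12 (GLUT12), a glucose carrier of muscle and fat, had a signal of 23.5, 23.5 and 134 (5.40 ± 1.45 on the log2 scale, SD, n = 3; limma, adjusted p = 0.176 for a mean below). Its replicate 3 was 5.71-fold over the other samples, the widest range of the 42 carriers. Without replicate 3 the gene was below (limma, adjusted p = 1.55e-17), a p that rests on a pair of equal values.

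Among the sodium-coupled sugar carriers, Slc5a2 (SGLT2), which takes up most of the filtered glucose in the early proximal tubule, had a signal of 362, 188 and 564 in replicates 1, 2 and 3 (8.40 ± 0.80 on the log2 scale, SD, n = 3). It was over the limit in every sample, with a 2.99-fold range between samples, and had no call in the main fit (limma, adjusted p = 0.0973). With the median variance assigned to equal values it was above, at a limma adjusted p of 0.0309. It was also above when probesets with a mean under 50 were left out of the fit.

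Slc5a1 (SGLT1), the glucose and galactose carrier of the gut and the late proximal tubule, had log2 signals of 5.61, 5.14 and 5.18 (5.31 ± 0.26, SD, n = 3; limma, adjusted p = 0.00613, below). No sample reached a signal of 50. Without replicate 2 the adjusted p from limma was 0.0535, and without replicate 3 it was 0.0851. Slc5a9 and Slc5a10, sugar carriers also known as SGLT4 and SGLT5, were below as well, at mean log2 signals of 5.62 and 5.86.

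Slc5a3 (SMIT1), which brings in inositol as an osmolyte, had a signal of 533, 333 and 163 in replicates 1, 2 and 3 (8.26 ± 0.86 on the log2 scale, SD, n = 3; limma, adjusted p = 0.13). All samples were over the limit, with replicate 1 at 3.26-fold replicate 3. With the median variance assigned to equal values it was above (limma, adjusted p = 0.0467). Slc5a11 (SMIT2), the other inositol carrier of the family, had 6.36 in each sample and was below (limma, adjusted p = 1.53e-07), a call that was lost with the assigned variance (0.0557).

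The sodium-coupled monocarboxylate carriers lay on either side of the limit. Slc5a12 (SMCT2), the low-affinity lactate carrier of the proximal tubule, had a signal of 870, 993 and 1446 in replicates 1, 2 and 3 (10.07 ± 0.38 on the log2 scale, SD, n = 3; limma, adjusted p = 0.00647). Every sample was far over 100, and replicate 3 was the highest. With 2 samples left the adjusted p from limma was 0.0707 when replicate 1 was left out, 0.096 for replicate 2 and 0.053 for replicate 3.

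Slc5a8 (SMCT1), its high-affinity relative, had log2 signals of 6.30, 5.73 and 5.73 (5.92 ± 0.33, SD, n = 3; limma, adjusted p = 0.0345, below). Replicate 1 was the highest and no sample reached the limit. The adjusted p from limma was 0.153 without replicate 2 and 0.192 without replicate 3, and the call was lost when probesets with a mean under 50 were left out of the fit. The iodide carrier Slc5a5, the vitamin carrier Slc5a6 and the choline carrier Slc5a7 were below, with mean log2 signals of 5.87, 6.09 and 4.44.

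All 4 proton-coupled lactate carriers were below 100. Slc16a1 (MCT1), the broadly expressed lactate and ketone carrier, had log2 signals of 5.66, 5.73 and 5.73 (limma, adjusted p = 0.000238). Slc16a3 (MCT4), the lactate exporter of glycolytic cells, had 6.12 in each sample (limma, adjusted p = 2.14e-08). These values differed by little or nothing between the samples.

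Slc16a7 (MCT2), a high-affinity pyruvate and lactate carrier, had log2 signals of 6.08, 5.61 and 6.15 (5.95 ± 0.29, SD, n = 3; limma, adjusted p = 0.0302, below). Replicate 2 was the lowest. Its adjusted p from limma was 0.119 without replicate 1 and 0.13 without replicate 3, and the call was lost when probesets with a mean under 50 were left out of the fit. Slc16a8 (MCT3), the carrier of the retinal pigment epithelium, had 6.05 in each sample and was below. Slc16a10, which carries aromatic amino acids, was below at 5.70 in each sample.

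Among the other 8 Slc16 genes, 2 were above, 3 were below and 3 were neither. Slc16a11 and Slc16a13, which lie next to each other on chromosome 11 and have been linked to the risk of type 2 diabetes in people, were both above. Slc16a11 had a signal of 162 in each sample (7.34 on the log2 scale; limma, adjusted p = 1.8e-06). With the assigned median variance its limma adjusted p was 0.0167, still a call.

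Slc16a13 had a signal of 185, 185 and 216 in replicates 1, 2 and 3 (7.60 ± 0.13 on the log2 scale, SD, n = 3; limma, adjusted p = 0.00947). All samples were over the limit, and replicates 1 and 2 were equal. Its adjusted p from limma was 0.105 without replicate 1 and 0.103 without replicate 2.

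Of the 3 Slc16 genes with no call, Slc16a4 and Slc16a14 had the widest ranges of the family. Slc16a4 (MCT5), with few known substrates, had a signal of 263, 64.4 and 147 in replicates 1, 2 and 3 (7.08 ± 1.02 on the log2 scale, SD, n = 3; limma, adjusted p = 0.911). Replicate 1 was 4.09-fold replicate 2, which lay under the limit, and without replicate 1 the mean also lay under it, at 6.60. Slc16a14, whose substrate is little known, had a signal of 127, 127 and 56.2 (6.60 ± 0.68 on the log2 scale, SD, n = 3; limma, adjusted p = 0.647 for a mean below). Only its replicate 3 was under the limit, and without it the gene was above at 6.99 (limma, adjusted p = 1.78e-14; the remaining samples are equal).

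Slc16a9 (MCT9), linked to carnitine and urate levels in blood, was the only carrier with 2 probesets, and they disagreed. The one used had a signal of 161, 161 and 114 in replicates 1, 2 and 3 (7.16 ± 0.29 on the log2 scale, SD, n = 3; limma, adjusted p = 0.139). Its samples were all over the limit, and without replicate 3 it was above (limma, adjusted p = 1.78e-14; the remaining samples are equal). The other probeset had log2 signals of 4.36, 4.61 and 4.40 and was below (limma, adjusted p = 0.00054). The 3 genes below among these other 8 Slc16 genes were Slc16a5, the ketone carrier Slc16a6 and the creatine carrier Slc16a12. Their mean log2 signals were 5.49, 5.63 and 6.20.

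The fatty acid carriers were split 1 against 5. Slc27a2 (FATP2), a very long-chain acyl-CoA synthetase and fatty acid carrier of liver and proximal tubule, had a signal of 2838, 1944 and 2536 in replicates 1, 2 and 3 (11.23 ± 0.28 on the log2 scale, SD, n = 3; limma, adjusted p = 0.00202). All samples were far over 100, with replicate 2 the lowest and a range of 1.46-fold. Without replicate 3 the adjusted p from limma was 0.0937.

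Slc27a1 (FATP1) of muscle and fat had 5.90 on the log2 scale in each sample, and Slc27a4 (FATP4), which has been described in endothelial fatty acid uptake, had 6.13 in each (adjusted p = 6.04e-09 and 2.3e-08 from limma, both below). Slc27a3, the bile acid-CoA ligase Slc27a5 and Slc27a6 of the heart were also below, at 6.04, 5.32 and 5.42 in each sample. For these 5 genes the samples did not differ at all in the deposited values.

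**Figure D2:**
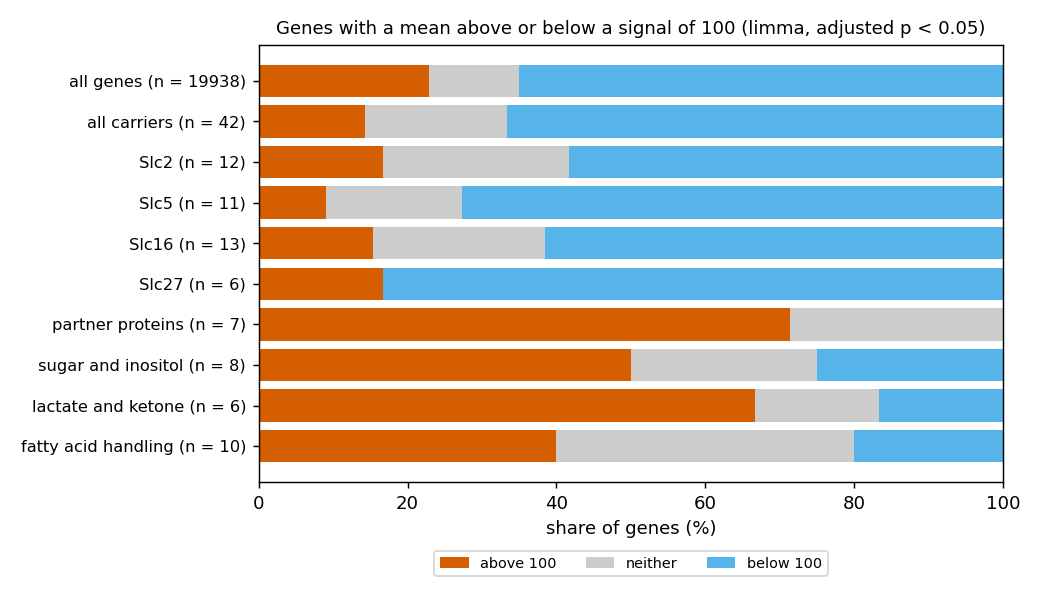
Share of genes in percent (x axis) with a mean above a signal of 100, below it or neither by limma's test, for all 19938 genes, the 42 carriers, each carrier family and the lists of partner and substrate genes, with the number of genes in each bar's label. The carriers had 14.3% above and 66.7% below, next to 22.9% and 65% of all genes, and the bars of the families rest on 6 to 13 genes each.

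The 3 samples were set against each other for the 12 carriers with a mean of 100 or more. Of these, 3, or 25.0%, had a range of 1 or more on the log2 scale (Slc5a2, Slc5a3 and Slc16a4), where 9.6% of the 6127 genes at that level did. The median SD was 0.28 for the 12 carriers and 0.10 for the 6127 genes, on the log2 scale. Replicate 2 alone was the lowest in 5 of the 10 carriers whose values were not equal, namely Slc2a1, Slc2a4, Slc5a2, Slc16a4 and Slc27a2, where it was the lowest in 26.3% of such genes. Slc5a3 went another way and was highest in replicate 1 and lowest in replicate 3. Slc5a12 was highest in replicate 3 and lowest in replicate 1.

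The tubule markers moved between the samples as well. The median deviation of the 11 proximal tubule genes from their own means was 0.05, -0.19 and 0.19 on the log2 scale in replicates 1, 2 and 3, and that of the 12 carriers was 0.05, -0.12 and 0.10. Replicate 2 was the lowest in both. The 6 thick ascending limb genes had 0.37, -0.42 and 0.15, and the 10 endothelial genes had 0.03, 0.01 and -0.03. Single endothelial genes moved more than this median, such as Kdr with a signal of 843, 834 and 443, and Emcn and Tek were also lowest in replicate 3. Single tubule genes departed from their medians as well. Slc7a13, Cldn10 and Cldn16 were highest in replicate 1 and lowest in replicate 3, as was the carrier Slc5a3, and Fbp1 was lowest in replicate 1. The smooth muscle and pericyte genes had -0.27, -0.31 and 0.75, with replicate 3 the highest. The study reports that genes specific to its cortical endothelial cells resembled a proximal tubule profile, and it reads this as a minor contamination. The part of tubule, smooth muscle or pericyte RNA in the carrier signals was not tested here.

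**Figure D3:**
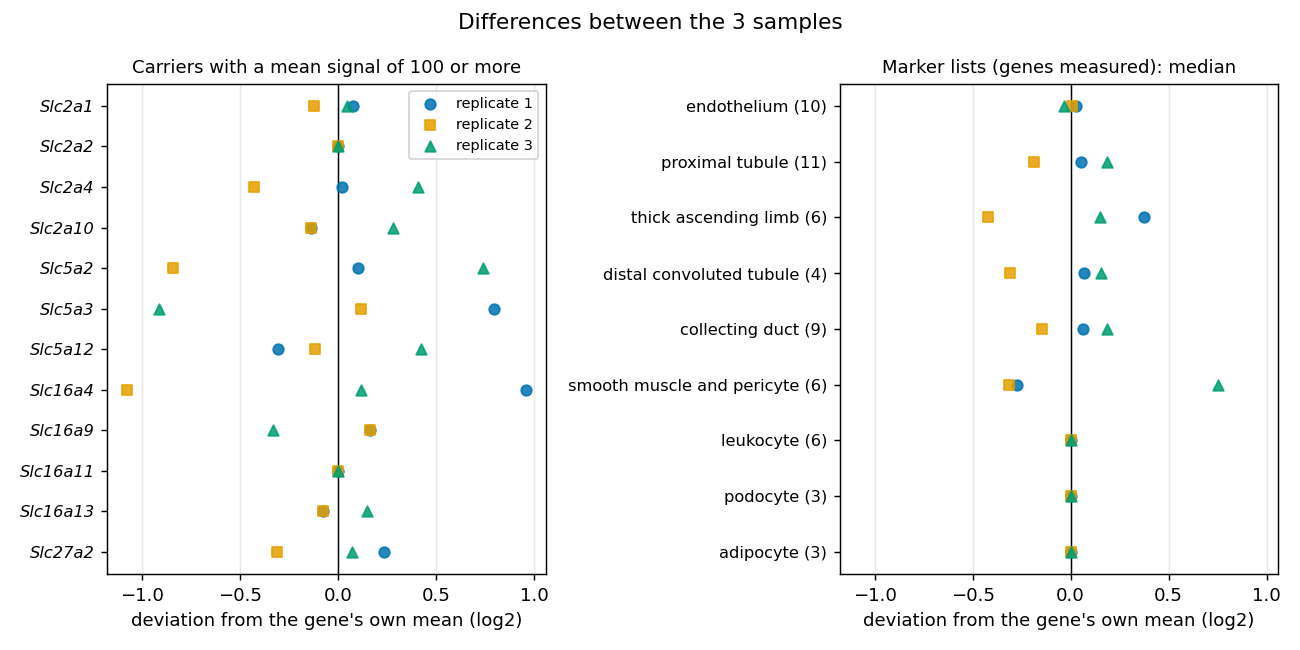
Deviation from the gene's own mean on the log2 scale (x axis) in replicates 1, 2 and 3, for the 12 carriers with a mean signal of 100 or more (left) and as the median over each marker list (right, with the number of genes measured). Replicate 2 lies to the left for Slc5a2, Slc16a4 and Slc27a2 and for the medians of the tubule lists. The median of the endothelial list lies close to 0 in all 3 samples. Single genes departed from these medians, such as Kdr and the proximal tubule gene Slc7a13, both lowest in replicate 3.

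Of the 42 carriers 20, or 47.6%, had the same value in all 3 samples, where 51.2% of all genes did. Of these 20, 18 were below 100 and 2 above (Slc2a2 and Slc16a11). In another 7 carriers replicates 1 and 2 were equal and replicate 3 differed, a pattern found in 12.4% of all genes. Among these were Slc2a10, Slc2a12, Slc16a9, Slc16a13 and Slc16a14. Equal values carry no information on the spread between samples.

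Genes that work with the carriers were examined next, from lists of partner proteins and of genes that use or handle the same substrates. Of 39 listed partner and substrate genes 31 were measured, of which 17, or 54.8%, were above, 5 were below and 9 were neither, beside 22.9% above and 65% below over all genes, and the number above was 10 without replicate 1 and 8 without replicate 3. Of 7 partner proteins 5 were above and 0 below. Bsg (basigin), which brings MCT1 and MCT4 to the surface, had log2 signals of 8.22, 8.07 and 8.20 (limma, adjusted p = 0.00155; 0.0816 without replicate 3). Its levels differed little between the samples, while both of its lactate carriers Slc16a1 and Slc16a3 were below.

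Emb (embigin), the partner of MCT2, had log2 signals of 6.60, 5.72 and 6.60 and was neither above nor below (limma, adjusted p = 0.243), and Slc16a7 too was lowest in replicate 2. Pdzk1ip1 (MAP17), the partner that SGLT2 needs for activity, had log2 signals of 10.24, 8.91 and 9.82 and was above (limma, adjusted p = 0.0254). It was lowest in replicate 2, as was Slc5a2, and its adjusted p was 0.154, 0.057 and 0.278 from limma without replicate 1, 2 and 3. The scaffold gene Pdzk1 of the proximal tubule brush border was above at 9.37, 8.96 and 8.96 (limma, adjusted p = 0.00483; 0.0737 without replicate 2 and 0.119 without replicate 3).

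Of 8 genes of sugar and inositol use 4 were above and 2 below. Hk1, the hexokinase of most cells, was above at log2 signals of 11.36, 11.33 and 11.33 (limma, adjusted p = 9.31e-06). Hk2 and Hk3, the hexokinases of muscle and of white blood cells, were below at 4.87 and 5.11 in each sample. Khk, the fructose kinase of liver and proximal tubule, was above at 8.61, 8.19 and 8.93 (limma, adjusted p = 0.0183), while the fructose carrier Slc2a5 was below. Khk was lowest in replicate 2, and its adjusted p was 0.176, 0.0689 and 0.162 from limma without replicate 1, 2 and 3.

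Of 6 genes of lactate and ketone use 4 were above and 1 below. Ldha, the lactate dehydrogenase subunit of glycolytic tissue, was above at a log2 signal of 8.67 in each sample (limma, adjusted p = 1.68e-06). Ldhb, the subunit of oxidative tissue, was above at 10.14, 9.29 and 10.34 (limma, adjusted p = 0.0146; 0.152 without replicate 1 and 0.184 without replicate 3). Both subunits had a signal over 100 in every sample, and Ldhb was lowest in replicate 2. Ldhd, which oxidises D-lactate, was above with signals of 256, 176 and 178 (limma, adjusted p = 0.0466; 0.221 without replicate 2 and 0.302 without replicate 3). Bdh1, a ketone body enzyme of mitochondria, was below at 5.77 in each sample.

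Of 10 genes of fatty acid handling 4 were above and 2 below. Fabp4, the fatty acid binding protein of fat cells and capillary endothelium, was above at log2 signals of 11.65, 11.66 and 11.38 (limma, adjusted p = 0.000605). Cd36, the fatty acid receptor of capillary endothelium, had signals of 511, 312 and 148 and no call (limma, adjusted p = 0.159), with replicate 1 the highest and replicate 3 the lowest. Fabp3, the form of the heart, had 7.86, 7.18 and 8.42 and no call (limma, adjusted p = 0.127), though it was above with the assigned variance (0.0469). Fabp1, the liver form, was below at 3.56, 3.61 and 3.68.

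**Figure D4:**
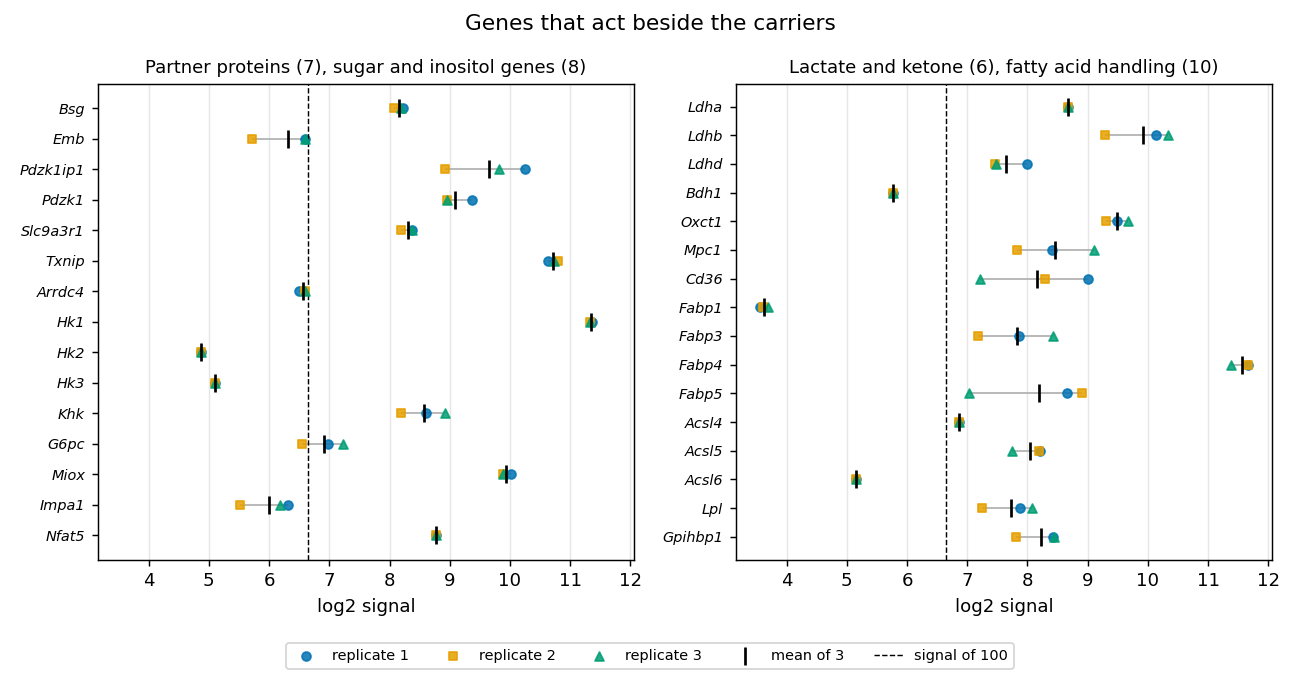
Log2 signal (x axis) in replicates 1, 2 and 3 of the 31 measured genes that act beside the carriers, with partner proteins and genes of sugar and inositol use in the left panel and genes of lactate, ketone and fatty acid use in the right panel. The short black bar is the mean of the 3 samples and the dashed line is a signal of 100 (6.64). Hk1 and Fabp4 lie far to the right in every sample, Hk2, Hk3 and Fabp1 lie to the left, and Cd36 and Fabp5 differ widely between samples.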

How the data were processed

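The values deposited by the authors are log2 signals from the array scans, with a column for each sample. The study's methods name RMA in GeneSpring GX, and the submitters' processing notes name Affymetrix Expression Console. For this program no version is named, and for the probesets no genome build, nor is it said which arrays were normalized as 1 set (not given in the sources used here). RMA equalises the distributions of arrays and shrinks differences between weak signals. GEO's platform annotation tied 21789 of 35557 probesets to 1 gene, 1621 to several and 12147 to none. A gene with several probesets was represented by that of highest mean, and 21766 of the 21789 had a symbol found in RefSeq. Besides Slc16a9, the listed genes Hk1, Ldhb, Fabp3, Fabp5 and Cldn10 had 2 probesets each, and their values are from the higher one.

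Intercept-only models of the log2 signal minus log2 of 100 were fitted to all probesets with limma 3.58.1 in R 4.3.3, with a variance trend (2 residual and 0.297 prior degrees of freedom). The fit was run on simulated data in which each probeset kept its own SD. Equal values stayed equal there, so the simulation cannot judge calls that rest on them. Counts and figures were made with Python 3.11.15, pandas 2.3.3, numpy 2.4.6 and matplotlib 3.10.9. Arrays have no read depth, so their number, 3, limits the precision. The labels give 1 group, and no groups were compared.

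All carriers above 100 or at 100 in any sample were named, with a fixed set of well-known carriers, up to 4 genes per partner list and up to 3 per marker list with those on the unexpected side. The other carriers were summarised, and their means are given. Of the 104 genes on 14 lists of partners and markers, 90 had a probeset of their own. The members, lists and tests were chosen with earlier results of these data known. Alternatives were limits of 50 and 200, no test, quantile normalization, a median shift, no variance trend, the median variance of the other probesets for those with 3 equal values, adjustment over named genes, a filter on dim probesets, the median of a gene's probesets, and leaving out each sample.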

Additional observations from a re-analysis of the deposited data

How the results depend on the processing

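The main values were 6 carriers above and 28 below. At a limit of 50 these were 25 and 8, and at a limit of 200 they were 2 and 33. A signal of 100 or more in each sample, with no test, gave 10 above. With only probesets of a mean signal of 50 or more fitted, 16 were below, where 11 carriers were not fitted and Slc5a8 and Slc16a7 were fitted and lost their calls. Leaving out 1 sample gave 3 to 6 above and 24 to 26 below, from 2 samples each, where a pair of equal values has no spread. Shares of all genes were counted only for the main fit, the rule with no test and the assigned variance. The counts under the other alternatives therefore cannot be read as a trait of the carriers. Quantile normalization and the median shift each changed 1 of the 42 calls, no variance trend and adjustment over named genes changed 0, and the median variance for equal values changed 4. Slc16a9 turned to below at 5.81 at the median of its probesets, and among the fits without 1 sample Slc16a4 ran from 6.60 (without replicate 1) to 7.62 and Slc16a14 from 6.40 to 6.99 (without replicate 3), across the limit. No paired analysis was possible because the samples form 1 group. With 3 arrays, means with a wide range had no call in the main fit near the limit, such as Slc16a4 at 7.08. The same held far over it, for Slc5a2 at 8.40 and Slc5a3 at 8.26.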
